A study of Mus musculus with 16 samples.

Results

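Toll-like receptors are the membrane receptors with which macrophages, dendritic cells and B cells recognise molecules of microbes and of damaged cells. The measured members were Tlr1 to Tlr9, taken as every probe set of the arrays whose only annotated gene symbol was one of these names. They comprised 9 of the 18194 genes measured and 15 of the 34958 probe sets with exactly 1 gene symbol. Tlr4 had 4 probe sets, Tlr7 had 3, Tlr3 had 2 and each of the other members had 1.

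RNA of cells that the sample titles call TAMs (tumour-associated macrophages) was measured on 16 Affymetrix arrays. The cells were sorted from the peritoneal lavage of female C57BL/6N mice in a study of endothelial Rbpj, the DNA-binding effector of Notch signalling. The 4 groups held 4 arrays each: CCR2+ cells of RbpjiΔEC mice, CCR2+ cells of control mice, CCR2- cells of RbpjiΔEC mice and CCR2- cells of control mice. RbpjiΔEC denotes tamoxifen-induced loss of Rbpj in endothelial cells, so the cell type aimed at is not the one that was sorted. The Cre driver and the exact control genotype are not given in the sources used here. Deletion of Rbpj in the sorted cells was not tested, and only its transcript is compared between genotypes below. As the labels describe it for the mice of all groups, 1 mg of tamoxifen was given by mouth once at 8 to 12 weeks of age, ID8-luc ovarian cancer cells were injected into the peritoneum 3 weeks later, and the tumours grew for 4 weeks. Cells of both labels were gated as CD45+, CD11b+ and F4/80+ and then divided by CCR2. Whether the arrays of a group came from separate animals is not stated, and if they did not, the p-values below rest on technical spread alone.

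Each Toll-like receptor binds its own class of ligand. Tlr1, Tlr2, Tlr4, Tlr5 and Tlr6 act mainly at the cell surface on lipopeptides, lipopolysaccharide and flagellin, whereas Tlr3, Tlr7, Tlr8 and Tlr9 act in endosomes on nucleic acids. All of these receptors except Tlr3 signal through the adaptor Myd88, and Tlr3 and Tlr4 use the adaptor Ticam1, towards NF-κB, interferon regulatory factors and cytokine genes. Macrophages are known for strong responses through Tlr2 and Tlr4, and B cells for responses to CpG DNA through Tlr9.

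The deposited intensities differed in kind between the labels: array means lay between 821 and 827 in the 8 CCR2+ columns and between 481 and 762 in the 8 CCR2- columns. After multiplication by a whole divisor of at most 22, 2.58% to 2.91% of the values were whole numbers in CCR2+ columns, against 100% in CCR2- columns, within a tolerance of 0.001. A difference between labels and a difference between these kinds of column cannot be told apart. Correlations between arrays over all 45101 probe sets were 0.969 to 0.991 within a group, 0.968 to 0.991 between genotypes of one label and 0.837 to 0.871 between labels. The mean of Ccr2 itself went against the label: its normalized log2 intensity was 7.69 in CCR2+ and 8.94 in CCR2- arrays of RbpjiΔEC mice, with overlapping groups and a limma adjusted p of 0.133. In control mice it was 7.99 in arrays labelled CCR2+ and 9.99 in arrays labelled CCR2- (limma adjusted p = 0.0179, overlapping groups). In arrays labelled CCR2-, the gated macrophage genes Adgre1 (F4/80) and Itgam (CD11b) were lower and B cell genes higher than in arrays labelled CCR2+: Adgre1 averaged 13.25 in CCR2+ and 9.21 in CCR2- arrays of control mice, and the B cell gene Ms4a1 averaged 7.09 in CCR2+ and 13.55 in CCR2- arrays. A gate on F4/80 would leave out B cells. Rbpj, whose deletion was aimed at endothelial cells, did not pass the test between genotypes in either label (limma adjusted p = 0.985 in CCR2+ and 1.00 in CCR2- arrays). Its difference of RbpjiΔEC minus control was 0.07 (95% interval -0.26 to 0.39) in CCR2+ and -0.09 (95% interval -0.42 to 0.23) in CCR2- arrays. CCR2+ and CCR2- therefore stand here for the labels of the arrays.

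Values are normalized log2 intensities: log2 of the deposited intensities after quantile normalization over the 16 arrays. A probe set was called where the limma p, adjusted by Benjamini-Hochberg over all 34958 probe sets, was under 0.05, and a gene with several probe sets was read at the one with the highest mean. No detection calls were used. The mean over the 3 probe sets of the trp control, a transcript that mouse cells lack, was 6.35 to 6.51 per array and gives the level of a dark probe set.

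Between the sort labels, 8 of the 9 Toll-like receptors were called in both genotypes, where 39.0% of all genes were called in RbpjiΔEC mice and 40.9% in control mice. Tlr2, Tlr3, Tlr4, Tlr6 and Tlr8 were higher in CCR2+ than in CCR2- arrays, and Tlr1 and Tlr9 were lower. Tlr7 was higher at its brightest probe set, while its other 2 probe sets had the opposite sign without a call and the mean of the 3 was not called. Tlr5 was not called. At the brightest probe sets, the 2 largest differences ran in opposite directions. In RbpjiΔEC mice, Tlr4 was 10.2-fold higher and Tlr9 10.4-fold lower in CCR2+ than in CCR2- arrays. The 2 other Tlr4 probe sets that were called gave 4.03-fold and 3.36-fold there. Between RbpjiΔEC and control mice, none of the 9 was called in CCR2+ or in CCR2- arrays.

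Sequences near the starts of Tlr9 and Tlr1, the members lower in CCR2+ arrays, and of Tlr8, which was higher, are shown because these windows were the ones that held a searched motif. They are RefSeq windows of 300 bases in the GRCm38.p6 build, from 250 bases before to 50 bases after an annotated transcript start, written 5′ to 3′ along the gene. RefSeq windows were matched by symbol for 7 of the 9 members, as 9 windows; Tlr4 and Tlr7 were not matched. Capitals mark the letters of 2 motifs searched on both strands: GAGGAA, the core bound by the myeloid and B cell factor Spi1, and ATGCAAAT, the octamer bound by Oct factors. No matches of the 2 motifs overlapped in these windows.
Tlr9 window, chr9:106222348-106222647, plus strand: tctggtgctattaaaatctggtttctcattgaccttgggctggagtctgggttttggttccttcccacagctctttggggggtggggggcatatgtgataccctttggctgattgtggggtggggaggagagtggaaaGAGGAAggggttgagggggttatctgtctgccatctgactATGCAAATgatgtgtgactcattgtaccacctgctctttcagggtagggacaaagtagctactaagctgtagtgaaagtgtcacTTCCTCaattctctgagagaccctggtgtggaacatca
Tlr1 window, chr5:64933509-64933808, minus strand: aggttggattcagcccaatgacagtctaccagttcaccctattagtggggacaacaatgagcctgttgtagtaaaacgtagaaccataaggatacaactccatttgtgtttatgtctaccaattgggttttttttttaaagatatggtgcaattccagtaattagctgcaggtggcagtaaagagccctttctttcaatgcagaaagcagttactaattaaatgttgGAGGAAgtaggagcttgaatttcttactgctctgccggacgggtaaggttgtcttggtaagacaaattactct
Tlr8 window, chrX:167264280-167264579, minus strand: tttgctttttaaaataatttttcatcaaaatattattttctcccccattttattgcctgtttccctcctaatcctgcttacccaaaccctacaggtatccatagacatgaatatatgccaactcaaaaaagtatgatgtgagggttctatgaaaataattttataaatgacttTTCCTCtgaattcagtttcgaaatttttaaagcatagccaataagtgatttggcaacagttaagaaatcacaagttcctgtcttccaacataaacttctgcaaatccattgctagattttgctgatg
The Tlr9 window held GAGGAA 2 times, once on each strand, and ATGCAAAT 1 time. Of all 32851 RefSeq windows of this length, 28.3% held GAGGAA and 1.74% held ATGCAAAT. Tlr1 and Tlr8 each held GAGGAA 1 time in the window shown. Neither motif was found in the other window of Tlr1, the windows of Tlr6, or those of Tlr2, Tlr3 and Tlr5. A match is a string of letters and no measured binding site.

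Tlr9 lies on chromosome 9 between Twf2 and Alas1, Tlr2 on chromosome 3, Tlr3 on chromosome 8, Tlr4 on chromosome 4 and Tlr5 on chromosome 1, in the RefSeq annotation of the same assembly. Tlr1 and Tlr6 are direct neighbours on chromosome 5, and Tlr7 and Tlr8 on chromosome X.

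**Figure D1:**
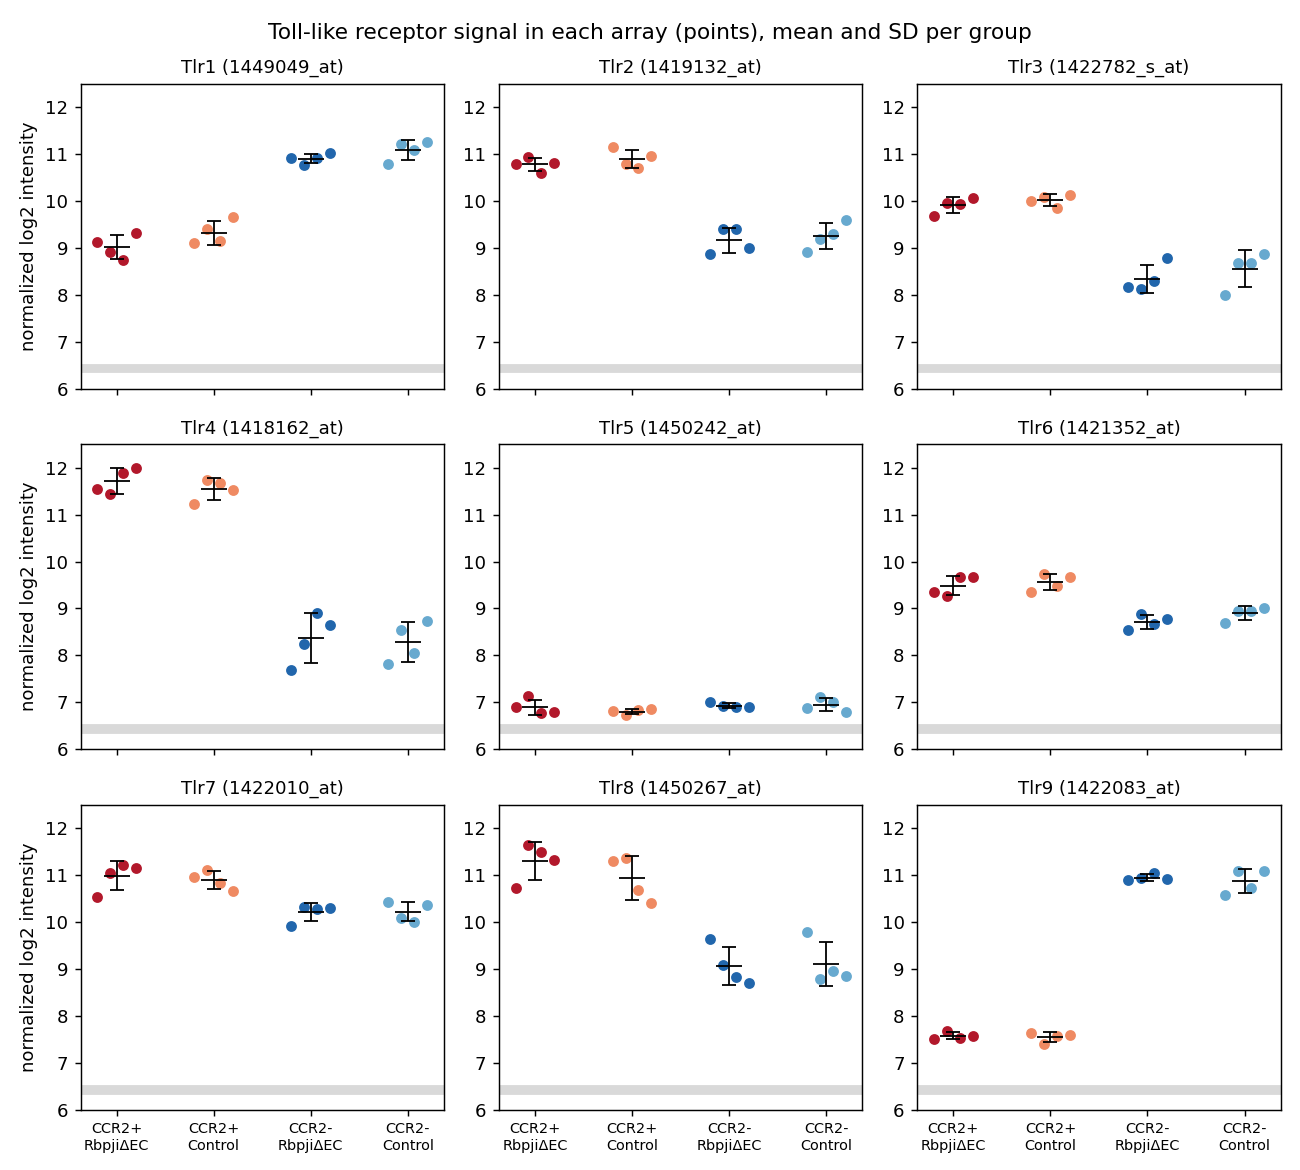
Normalized log2 intensity of each Toll-like receptor at its probe set with the highest mean, in each of the 16 arrays (points, 4 per group), with the group mean and SD (black bars). The grey band marks 6.35 to 6.51, the range of the trp control over the arrays. The CCR2+ points lie apart from the CCR2- points within each genotype for every member except Tlr5. The share of all genes whose labels lie apart was not counted. Between labels, 39.0% of all genes were called in RbpjiΔEC mice and 40.9% in control mice.

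Among the surface receptors, Tlr4, the receptor for lipopolysaccharide, differed most when read at its brightest probe set. At probe set 1418162_at it read 11.54, 11.43, 11.90 and 12.00 in CCR2+ arrays of RbpjiΔEC mice and 11.23, 11.74, 11.68 and 11.52 in CCR2+ arrays of control mice. In CCR2- arrays it read 7.69, 8.25, 8.90 and 8.64 in RbpjiΔEC mice and 7.81, 8.53, 8.05 and 8.73 in control mice. Every CCR2+ array was above every CCR2- array, and CCR2- arrays spread more widely (SD 0.27 and 0.23 in CCR2+ arrays, against 0.52 and 0.42 in CCR2- arrays). The difference of CCR2+ minus CCR2- was 3.35 (95% interval 2.84 to 3.86, limma adjusted p = 6.97e-09) in RbpjiΔEC mice and 3.26 (95% interval 2.75 to 3.77, limma adjusted p = 9.74e-09) in control mice.

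The other Tlr4 probe sets did not all give that difference. In RbpjiΔEC mice the difference was 2.01 ± 0.20 (SE) at 1442827_at and 1.75 ± 0.24 (SE) at 1418163_at, and in control mice it was 2.02 ± 0.20 (SE) and 1.77 ± 0.24 (SE) at the same probe sets, all called. The fourth probe set, 1430695_at, read 6.16 to 6.47 over the 16 arrays, within or below the range of the trp control, and differed by -0.02 and 0.02 in RbpjiΔEC and control mice, without a call. With the mean of all its probe sets in place of the brightest one, the Tlr4 difference was 1.77 in RbpjiΔEC mice and 1.77 in control mice, still called in both. The size of the Tlr4 difference therefore depended on the probe set, and its direction and call did not for the 3 probe sets above the trp control.

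Tlr2, which pairs with Tlr1 or Tlr6 to bind lipopeptides, was also higher in CCR2+ arrays. It read 10.78, 10.94, 10.59 and 10.81 in CCR2+ arrays of RbpjiΔEC mice and 11.14, 10.79, 10.70 and 10.95 in those of control mice. The CCR2- arrays read 8.86 to 9.39 in RbpjiΔEC mice and 8.91, 9.20, 9.29 and 9.59 in control mice. No CCR2+ value fell within the CCR2- values. The difference was 1.62 ± 0.15 (SE) in RbpjiΔEC mice and 1.65 ± 0.15 (SE) in control mice, about 3.07-fold and 3.14-fold (limma adjusted p = 1.97e-07 and 1.53e-07).

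The partners of Tlr2 differed in opposite directions. Tlr1, the partner for triacylated lipopeptides, read 9.13, 8.90, 8.73 and 9.31 in CCR2+ arrays of RbpjiΔEC mice and 9.10, 9.40, 9.14 and 9.65 in those of control mice. In CCR2- arrays it read 10.92, 10.77, 10.91 and 11.02 in RbpjiΔEC mice and 10.79, 11.21, 11.09 and 11.25 in control mice. The highest CCR2+ value of Tlr1 was below its lowest CCR2- value. Tlr1 was 3.69-fold lower in CCR2+ than in CCR2- arrays of RbpjiΔEC mice (difference -1.88 ± 0.14, SE, limma adjusted p = 1.35e-08) and 3.39-fold lower in control mice (-1.76 ± 0.14, SE, limma adjusted p = 3.18e-08). Tlr6, the partner for diacylated lipopeptides, read 9.27 to 9.67 in CCR2+ and 8.53 to 8.87 in CCR2- arrays of RbpjiΔEC mice, and 9.35 to 9.72 in CCR2+ and 8.68 to 9.01 in CCR2- arrays of control mice. Its groups did not overlap, with differences of 0.78 ± 0.12 and 0.66 ± 0.12 (SE; limma adjusted p = 5.95e-05 and 0.000287). In intensities without quantile normalization, the Tlr6 difference was 1.22 in RbpjiΔEC mice.

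Tlr5, the receptor for flagellin, was dim on every array. It read 6.78 to 7.13 in CCR2+ and 6.89 to 7.01 in CCR2- arrays of RbpjiΔEC mice, and 6.72 to 6.85 in CCR2+ and 6.80 to 7.12 in CCR2- arrays of control mice. All these values were above the range of the trp control by less than 1 log2 unit, and the groups overlapped. The difference was -0.03 (95% interval -0.23 to 0.16, limma adjusted p = 0.822) in RbpjiΔEC mice and -0.15 (95% interval -0.34 to 0.05, limma adjusted p = 0.230) in control mice.

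Among the endosomal receptors, Tlr9 differed most. This receptor for unmethylated CpG DNA read 7.51, 7.68, 7.53 and 7.57 in CCR2+ arrays of RbpjiΔEC mice and 7.63, 7.41, 7.57 and 7.60 in those of control mice. In CCR2- arrays it read 10.89, 10.95, 11.05 and 10.91 in RbpjiΔEC mice and 10.58, 11.08, 10.72 and 11.10 in control mice. The labels lay far apart and the 4 arrays of each group close together, with SDs of 0.26 in CCR2- arrays of control mice and 0.07 to 0.10 in the remaining groups. Tlr9 was lower in CCR2+ than in CCR2- arrays by 10.4-fold in RbpjiΔEC mice (difference -3.37, 95% interval -3.60 to -3.15, limma adjusted p = 2.16e-13) and by 9.98-fold in control mice (difference -3.32, 95% interval -3.55 to -3.09, limma adjusted p = 2.78e-13).

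Tlr8, which binds breakdown products of RNA in human cells, was higher in CCR2+ arrays. It read 10.73, 11.64, 11.50 and 11.33 in CCR2+ arrays of RbpjiΔEC mice and 11.30, 11.37, 10.69 and 10.41 in those of control mice. In CCR2- arrays it read 9.63, 9.09, 8.82 and 8.71 in RbpjiΔEC mice and 9.79, 8.78, 8.97 and 8.86 in control mice. The labels did not overlap, while within each label the genotypes did. The difference between labels was 2.24 ± 0.28 (SE), or 4.71-fold, in RbpjiΔEC mice and 1.84 ± 0.28 (SE), or 3.58-fold, in control mice (limma adjusted p = 4.81e-06 and 3.83e-05).

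Tlr3, the receptor for base-paired RNA, read 9.67 to 10.07 in CCR2+ and 8.12 to 8.78 in CCR2- arrays of RbpjiΔEC mice at 1422782_s_at. In control mice it read 9.85 to 10.13 in CCR2+ and 7.99 to 8.87 in CCR2- arrays. It was higher in CCR2+ arrays by 1.57 ± 0.17 in RbpjiΔEC mice and by 1.46 ± 0.17 in control mice (SE; limma adjusted p = 1.41e-06 and 3.27e-06). Its other probe set, 1422781_at, gave 0.98 ± 0.13 and 1.02 ± 0.13 (SE) in the same direction, also called, so both Tlr3 probe sets separated the labels. That probe set was dim in CCR2- arrays, with 6.42 to 6.88 in RbpjiΔEC and 6.51 to 7.18 in control mice. Its lowest values there lay within the range of the trp control, which limits the size of its difference.

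For Tlr7, the receptor for uridine-rich RNA, the probe sets disagreed. At 1422010_at it read 10.54, 11.04, 11.23 and 11.14 in CCR2+ arrays of RbpjiΔEC mice and 10.97, 11.11, 10.83 and 10.67 in those of control mice. In CCR2- arrays it read 9.93, 10.33, 10.28 and 10.30 in RbpjiΔEC mice and 10.42, 10.09, 10.01 and 10.37 in control mice. The labels did not overlap within a genotype, and the differences of 0.78 ± 0.15 and 0.67 ± 0.15 (SE) in RbpjiΔEC and control mice were called (limma adjusted p = 0.000541 and 0.00180). The other Tlr7 probe sets had the opposite sign and no call: -0.21 and -0.15 at 1419848_x_at (limma adjusted p = 0.195 and 0.356), and -0.29 and -0.20 at 1449640_at (limma adjusted p = 0.0638 and 0.203), in RbpjiΔEC and control mice. With the mean of the 3 probe sets the Tlr7 call was lost, at 0.09 (limma adjusted p = 0.549) in RbpjiΔEC mice and 0.11 (limma adjusted p = 0.477) in control mice. Without CCR2+ RbpjiΔEC replicate 2, both lower probe sets were called lower in RbpjiΔEC mice, with -0.32 at 1419848_x_at and -0.40 at 1449640_at (limma adjusted p = 0.0326 and 0.00826). In intensities without quantile normalization the difference at 1422010_at was 1.39 in RbpjiΔEC and 1.14 in control mice, and with median centring of each array it was 1.09 in control mice. The call for Tlr7 thus rests on 1 of its 3 probe sets.

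**Figure D2:**
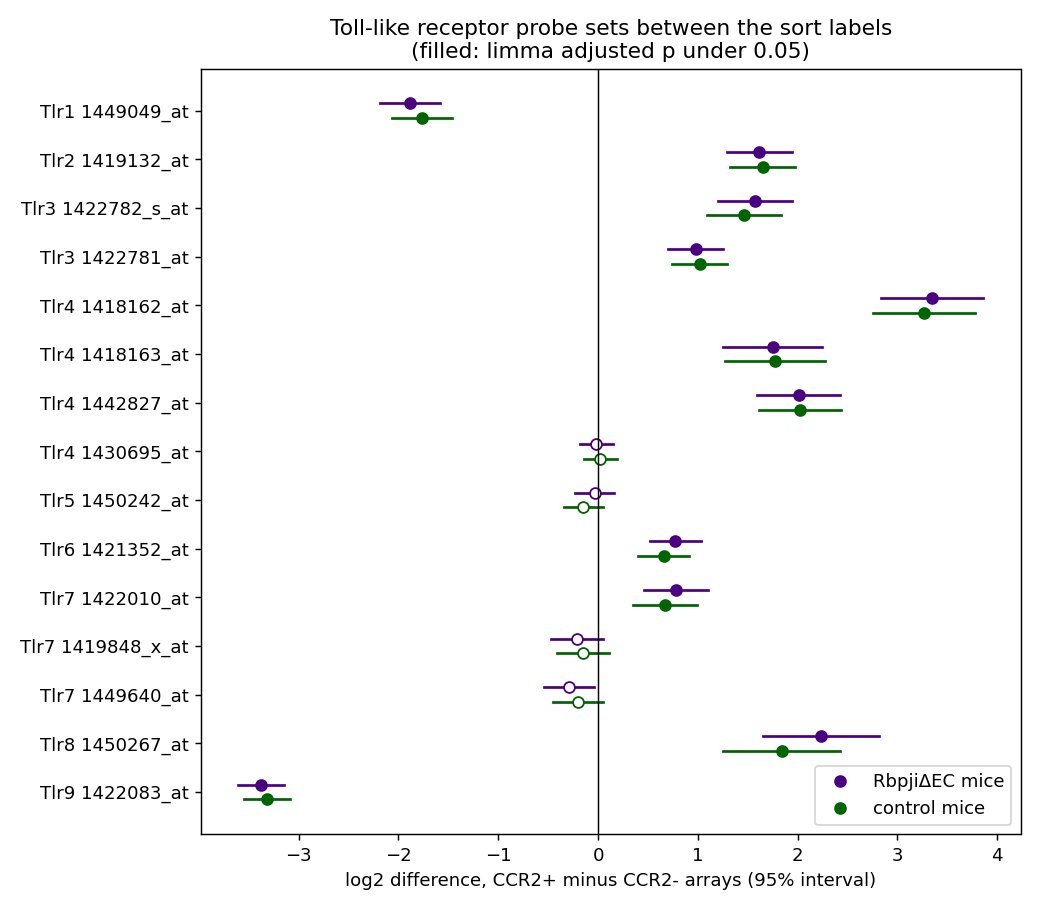
Difference in normalized log2 intensity, CCR2+ minus CCR2- arrays, for the 15 Toll-like receptor probe sets, with 95% intervals from limma, in RbpjiΔEC mice and control mice (4 arrays per group). Filled points were called at an adjusted p under 0.05. Of the 15 probe sets, 11 were called in each genotype, and both genotypes lie close together in every row.

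By count, 11 of the 15 probe sets were called between the labels in each genotype, against 39.1% of all probe sets in RbpjiΔEC mice and 41.6% in control mice. Of the 9 genes, 8 were called in each genotype, against 39.0% of all genes in RbpjiΔEC mice and 40.9% in control mice. The 6 genes higher in CCR2+ arrays stand beside 18.0% of all genes in RbpjiΔEC mice and 19.5% in control mice. The 2 lower genes stand beside 21.0% of all genes in RbpjiΔEC mice and 21.4% in control mice. The median difference of the 9 was 0.78 in RbpjiΔEC mice and 0.67 in control mice, beside -0.03 and -0.03 over all genes. Of all called probe sets, 48.1% were higher in CCR2+ arrays of RbpjiΔEC mice, and this share was 53.6% with median centring and 83.0% in intensities without normalization between arrays. In control mice it was 50.3%, with 62.2% and 72.1% under the same scalings. The 8 include Tlr7, and when a gene's probe sets were averaged 7 were called. All of the 8 kept their direction and call under both scalings.

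Lists of cell type markers differed in the share of genes called between the labels. Of all genes, 39.0% were called in RbpjiΔEC mice and 40.9% in control mice. The shares of B cell, large peritoneal macrophage, dendritic cell, plasmacytoid dendritic cell and monocyte markers were above these in both genotypes. Those of endothelial, neutrophil, and T and NK cell markers were below in both. Those of mast cell markers and of epithelial and mesothelial markers changed side between genotypes. The mean of 13 B cell markers, which include Cd79a, Ms4a1 and Pax5, was 7.31 to 7.54 per array in CCR2+ and 11.72 to 11.99 in CCR2- arrays, and 13 of 13 were called lower in CCR2+ arrays in both genotypes. The mean of 12 markers of large peritoneal macrophages was 12.40 to 12.59 in CCR2+ and 7.96 to 8.49 in CCR2- arrays; 12 of 12 were called higher in RbpjiΔEC mice and 11 of 12 in control mice. Of 10 dendritic cell markers, 6 were called lower in CCR2+ arrays of RbpjiΔEC mice and 7 in control mice, and none higher. Of 8 plasmacytoid dendritic cell markers, 3 were lower and 1 higher in RbpjiΔEC mice, against 6 lower and 1 higher in control mice. Of 8 monocyte markers, 3 were called higher and 1 lower in RbpjiΔEC mice, against 3 higher and 2 lower in control mice. They ran both ways: Plac8 differed by -4.00 and -3.61 and Fcgr4 by 3.55 and 3.57, in RbpjiΔEC and control mice. Of 8 epithelial and mesothelial markers, 4 were called lower in RbpjiΔEC mice and 2 in control mice, and none higher. Epcam, which had the largest difference of that list, gave -1.72 and -1.34. Of 8 endothelial markers, Pecam1 alone was called, with -4.10 and -4.05. Of 10 neutrophil markers, Mmp9 alone was called, higher in each genotype. Of 9 T and NK cell markers, Cd3g and Il7r were called lower in each genotype. Of 7 mast cell markers, Hdc was called higher and Kit lower in each genotype, and Tpsb2 lower in control mice. Marker genes singled out here were chosen after their values were seen. The part of these cells in the receptor differences was not tested, and in sorted bulk samples fewer cells of a type and less RNA per cell cannot be told apart.

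**Figure D3:**
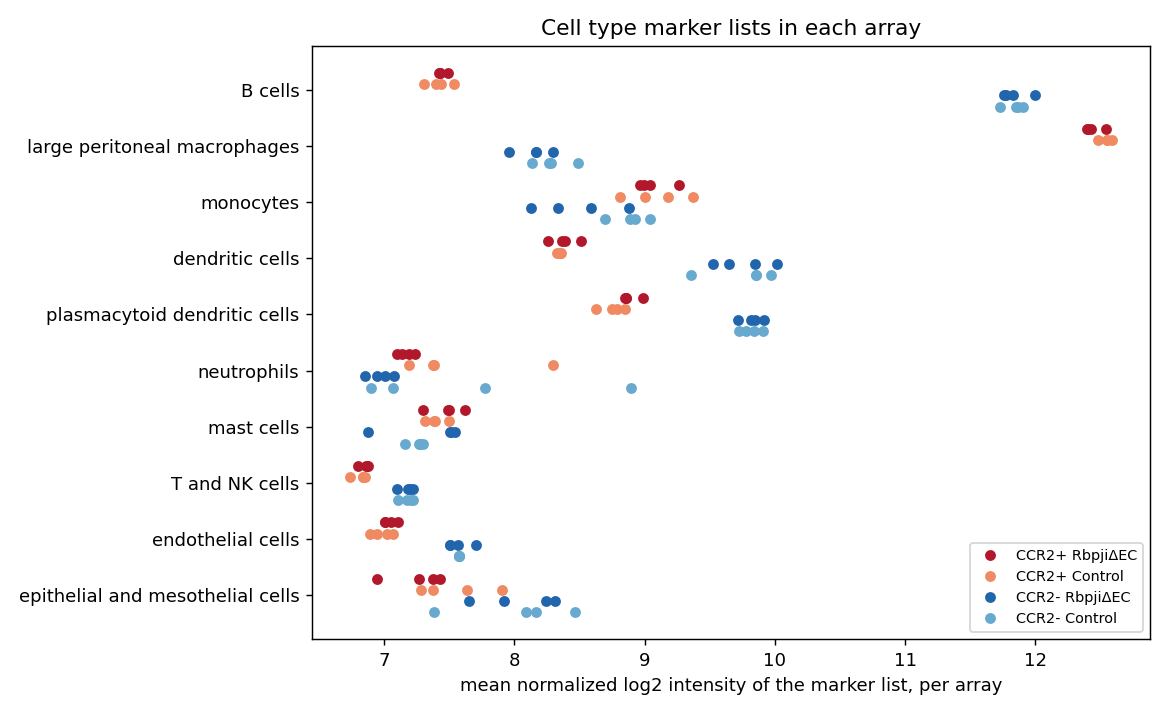
Mean normalized log2 intensity of each list of cell type markers in each array, coloured by group (4 arrays per group). The B cell list lies at 7.31 to 7.54 in CCR2+ and 11.72 to 11.99 in CCR2- arrays, and the large peritoneal macrophage list at 12.40 to 12.59 in CCR2+ and 7.96 to 8.49 in CCR2- arrays.

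Between RbpjiΔEC and control mice no Toll-like receptor was called in either label. In CCR2+ arrays 0 of the 9 genes was called by limma, as was 0 (0%) of all 18194 genes at their representative probe sets, while 2 of 34958 probe sets were called (0.00572%), of Arfgef2 and H2-DMb2, named after their values were seen. At an unadjusted p under 0.05, 1713 probe sets passed in CCR2+ arrays, where 1748 would pass by the threshold alone, and Tlr1 was among them. In CCR2- arrays 0 of the 9 genes and 0 probe sets (0%) were called, with 792 probe sets at an unadjusted p under 0.05 and no member among them.

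The differences of single members are given with their intervals. Tlr1 had the smallest p in CCR2+ arrays: its mean was 9.02 ± 0.25 in RbpjiΔEC and 9.32 ± 0.25 in control mice (SD, n = 4 arrays each), a difference of -0.30 (95% interval -0.61 to -0.00103, limma adjusted p = 0.962), with overlapping groups. Tlr8 differed by 0.36 (95% interval -0.22 to 0.94), from means of 11.30 ± 0.40 in RbpjiΔEC and 10.94 ± 0.47 in control mice. Leaving out 1 array at a time, the Tlr8 difference lay between 0.18 and 0.55 and that of Tlr1 between -0.40 and -0.19. Without CCR2+ control replicate 4, Tlr8 was at 0.18 and Tlr1 at -0.19. In CCR2- arrays the means of Tlr8 were 9.07 ± 0.41 in RbpjiΔEC and 9.10 ± 0.47 in control mice, a difference of -0.04 (95% interval -0.62 to 0.55). Both Tlr8 intervals are wide enough to hold a change of 0.5 in either direction in CCR2- arrays and a rise of that size in CCR2+ arrays.

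For Tlr9, one of the members with the smallest standard error, the difference of RbpjiΔEC minus control was 0.02 (95% interval -0.21 to 0.25) in CCR2+ arrays and 0.08 (95% interval -0.15 to 0.31) in CCR2- arrays. For Tlr4 it was 0.18 (95% interval -0.34 to 0.69) in CCR2+ arrays and 0.09 (95% interval -0.42 to 0.60) in CCR2- arrays. For Tlr2 it was -0.11 (95% interval -0.44 to 0.21) in CCR2+ arrays and -0.08 (95% interval -0.41 to 0.24) in CCR2- arrays. Every one of these intervals holds 0.

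Of the remaining members, Tlr3 differed between genotypes by -0.11 in CCR2+ and -0.22 in CCR2- arrays, Tlr6 by -0.07 and -0.19, Tlr7 by 0.09 and -0.01, and Tlr5 by 0.10 and -0.02. Tlr7 probe set 1449640_at was the single member probe set whose genotypes did not overlap: in CCR2- arrays it read 9.01 to 9.07 in RbpjiΔEC and 8.82 to 8.98 in control mice, a difference of 0.13 with a limma adjusted p of 1.00. In that label 0% of all probe sets were called. How many of all probe sets had genotypes that did not overlap was not counted, so this separation has no background here. The interaction, the genotype difference in CCR2+ minus that in CCR2- arrays, lay between -0.12 for Tlr1 and 0.39 for Tlr8, and 0 of the 9 genes was called (limma adjusted p = 0.998 for each). Over all probe sets 0 were called for the interaction (0%), with 1147 at an unadjusted p under 0.05.

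**Figure D4:**
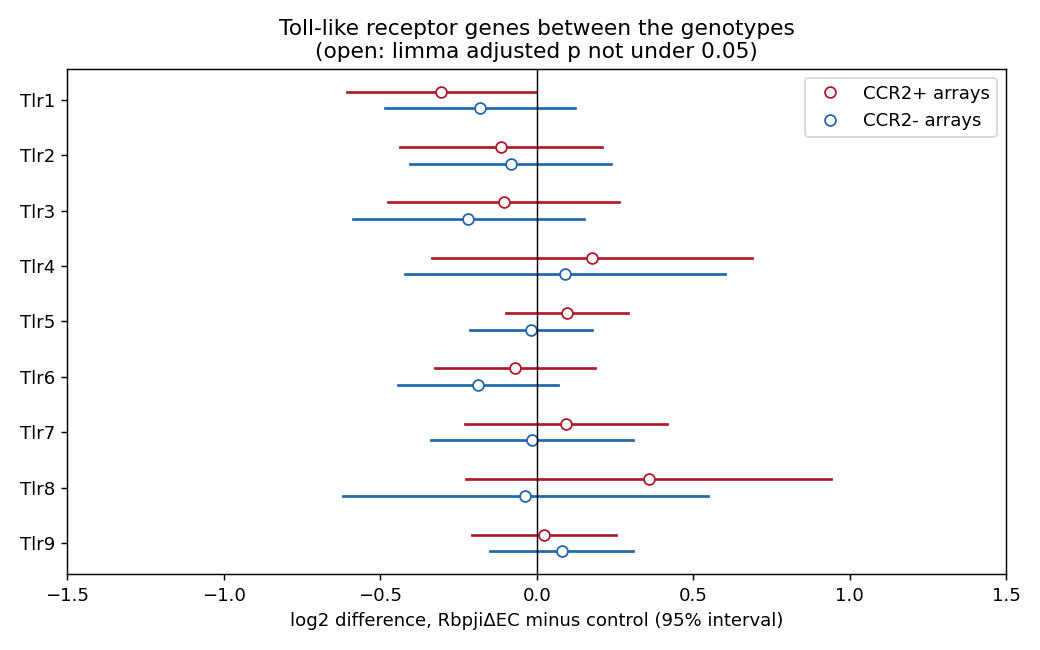
Difference in normalized log2 intensity, RbpjiΔEC minus control mice, for the 9 Toll-like receptors at the probe set with the highest mean, in CCR2+ and in CCR2- arrays, with 95% intervals from limma (4 arrays per group). None of the 9 was called in either label. The interval of Tlr1 in CCR2+ arrays ends at -0.00103.

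RNA quality was measured with the array controls for actin and Gapdh, as the log2 signal of the 3′ minus the 5′ probe set. For actin it averaged 0.386 in RbpjiΔEC and 0.262 in control mice in CCR2+ arrays (exact permutation test, two-sided p = 0.0857). Between the labels it averaged 0.386 in CCR2+ and 0.311 in CCR2- arrays of RbpjiΔEC mice (exact permutation p = 0.229), and 0.262 in CCR2+ and 0.345 in CCR2- arrays of control mice (exact permutation p = 0.143). For Gapdh it averaged 0.188 in RbpjiΔEC and 0.202 in control mice in CCR2+ arrays (exact permutation p = 0.83). Between the labels, Gapdh averaged 0.188 in CCR2+ and 0.150 in CCR2- arrays of RbpjiΔEC mice (exact permutation p = 0.514), and 0.202 in CCR2+ and 0.105 in CCR2- arrays of control mice (exact permutation p = 0.286). The controls had opposite signs between genotypes in CCR2+ arrays and between labels in control mice. The mean of the neutrophil markers was 7.10 to 7.23 in RbpjiΔEC and 7.19 to 8.30 in control mice in CCR2+ arrays, and 6.86 to 7.07 in RbpjiΔEC and 6.90 to 8.89 in control mice in CCR2- arrays. Replicate 2 gave the highest control value in each label. The other control arrays read 7.19 to 7.39 in CCR2+ and 6.90 to 7.78 in CCR2- arrays. The smallest p that 4 against 4 arrays allow is 0.0286, and the part of RNA quality or of neutrophils in the receptor values was not tested.

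The other genes of the pathway follow, from the ligand to the induced genes, each list at its own count between the labels, to be read beside the 18.0% of all genes called higher and 21.0% called lower in RbpjiΔEC mice and the 19.5% and 21.4% in control mice. Of the other murine receptors, Tlr13, which binds bacterial ribosomal RNA in mice, was higher in CCR2+ arrays by 3.67 in RbpjiΔEC and 4.07 in control mice. Tlr12, which binds a profilin of parasites, differed by -0.18 and -0.32 without a call. Among 9 surface co-receptors, 6 were called higher in CCR2+ arrays in both genotypes and none lower, with a median difference of 2.01 in RbpjiΔEC and 1.48 in control mice. Cd14, which hands lipopolysaccharide to Tlr4, averaged 12.75 in CCR2+ and 7.54 in CCR2- arrays of RbpjiΔEC mice, and 12.75 in CCR2+ and 8.04 in CCR2- arrays of control mice. Msr1, a scavenger receptor, had the largest difference of this list, 6.04 and 5.38 in RbpjiΔEC and control mice. Ly96 (MD-2), the subunit of Tlr4 that holds the lipid, was higher by 0.99 and 1.28. The remaining members called were Lbp, which binds lipopolysaccharide in serum, the scavenger receptor Cd36 and the glucan receptor Clec7a. Cd180 and Ly86, a receptor pair related to Tlr4 and Ly96, were not called, with differences of 0.54 and 0.37 for Cd180 and -0.18 and -0.17 for Ly86 in RbpjiΔEC and control mice. Tlr4 thus lay with its co-receptors Cd14 and Ly96 on the CCR2+ side of the comparison.

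Genes that move, cut or feed the endosomal receptors were mixed. Of 17 measured, 8 were called higher and 4 lower in CCR2+ arrays of RbpjiΔEC mice, and 9 higher and 3 lower in control mice, with medians of 0.28 and 0.60. The proteases Ctsl and Lgmn, which cut endosomal receptors such as Tlr9, were higher by 4.40 and 3.12 in RbpjiΔEC mice and by 4.23 and 2.78 in control mice. Lower in CCR2+ arrays were Dnase1l3, a DNase, with -2.24 and -2.05, and Slc15a4, a lysosomal transporter needed for responses through Tlr7 and Tlr9, with -0.95 and -0.77, in RbpjiΔEC and control mice. Unc93b1, the chaperone that carries the endosomal receptors out of the endoplasmic reticulum, was called higher in control mice (0.60, limma adjusted p = 0.00219) and not in RbpjiΔEC mice (0.28, limma adjusted p = 0.121); its interaction was not called. Of the other cathepsins in the list, Ctsb was higher by 1.30 and 1.35 in RbpjiΔEC and control mice, while Ctss (0.12 and 0.12, limma adjusted p = 0.221 and 0.219) and Ctsk (0.11 and -0.01, limma adjusted p = 0.573 and 0.958) were not called.

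Among 20 adaptors and kinases, 3 were called higher and 7 lower in CCR2+ arrays of RbpjiΔEC mice, and 2 higher and 6 lower in control mice. Their shares called, 50% and 40%, are near the 39.0% and 40.9% of all genes. Myd88, the shared adaptor, differed by 0.34 and 0.44 in RbpjiΔEC and control mice and was not called (limma adjusted p = 0.158 and 0.0670). Ikbke, a kinase of interferon regulatory factors, was higher by 1.85 and 1.85, and Tirap, the adaptor that brings Myd88 to Tlr2 and Tlr4, by 0.74 and 0.77. Irak2, a kinase bound to Myd88, was lower, with -1.24 and -0.77, as were Ikbkb, a kinase that frees NF-κB, with -0.64 and -0.74, and Btk, a kinase of B cell receptor and Toll-like receptor signalling, with -0.73 and -0.69.

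Of 15 transcription factors, 4 were called higher and 6 lower in CCR2+ arrays of RbpjiΔEC mice, and 6 higher and 6 lower in control mice, which is 66.7% and 80% of the list, against 39.0% and 40.9% of all genes. Cebpb and Irf7, which drive inflammatory and interferon genes, were higher by 3.43 and 1.77 in RbpjiΔEC mice and by 3.11 and 1.87 in control mice. Irf8 and Jun were lower, with -0.96 and -1.12 in RbpjiΔEC mice and -1.06 and -0.94 in control mice, Irf8 with overlapping groups in control mice. Of 19 negative regulators, 4 were called higher and 5 lower in RbpjiΔEC mice, and 4 higher and 4 lower in control mice, and these shares of 47.4% and 42.1% are near those of all genes. The phosphatase Dusp1 and the inhibitory receptor Cd200r1 were higher by 3.22 and 2.21 in RbpjiΔEC mice and by 2.86 and 1.95 in control mice. The inhibitory receptor Sigirr and the deubiquitinase Cyld were lower, with -1.46 and -0.99 in RbpjiΔEC mice and -1.52 and -1.12 in control mice.

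Of 21 cytokine and costimulatory genes that Toll-like receptors can induce, 8 were called higher and 6 lower in CCR2+ arrays of RbpjiΔEC mice, and 9 higher and 6 lower in control mice, or 66.7% and 71.4%, against 39.0% and 40.9% of all genes. The chemokine Cxcl2 was higher by 4.99 and 4.67 and the cytokine Il6 by 2.99 and 3.50, in RbpjiΔEC and control mice. The costimulatory gene Cd80 was lower, with -1.52 and -1.93, as was the chemokine Ccl5, with -1.88 and -1.61. Tnf, a classical target of NF-κB, was not called, at -0.12 and -0.15 (limma adjusted p = 0.528 and 0.408).

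**Figure D5:**
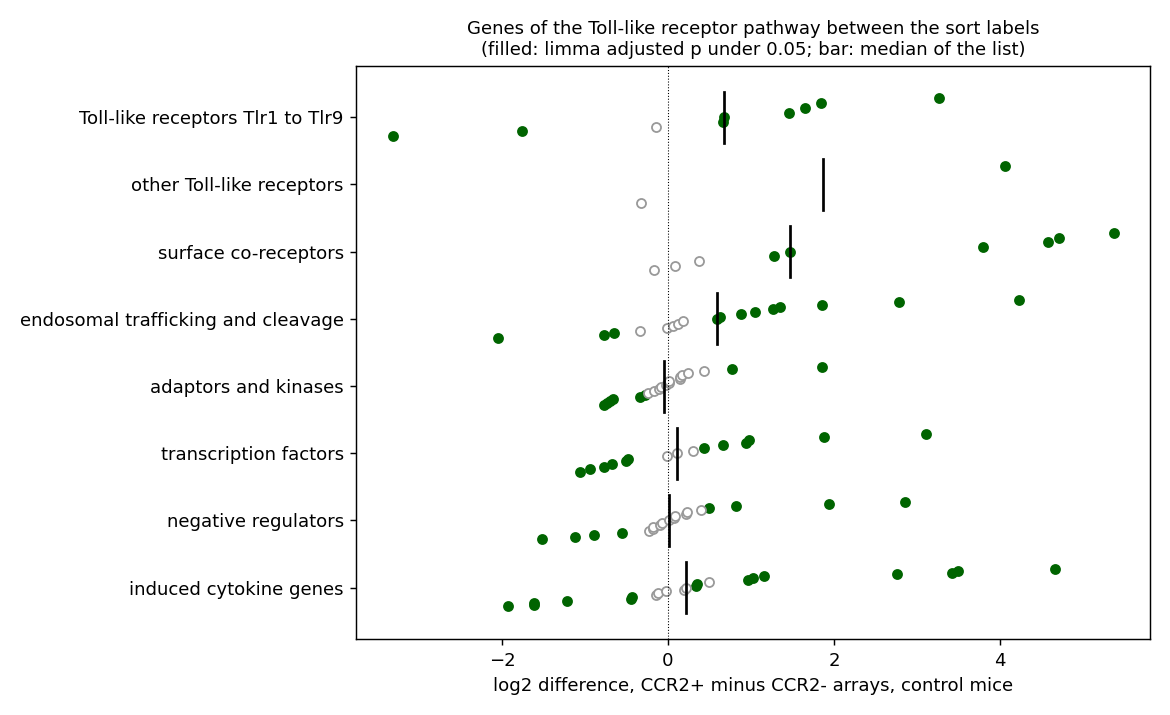
Difference in normalized log2 intensity, CCR2+ minus CCR2- arrays of control mice, for the 9 Toll-like receptors and the measured genes of 7 pathway lists (1 point per gene, 4 arrays per group). Filled points were called at a limma adjusted p under 0.05 and the bar is the median of the list. The co-receptors called all lie to the right of 0, and the adaptors and kinases lie on both sides of it, with a median of -0.05.

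Between genotypes 0 genes of these 7 lists were called by limma in either label. The smallest p in CCR2+ arrays was that of the cytokine Il1a, differing by -0.57 ± 0.13 (SE, limma adjusted p = 0.452). In the other lists the smallest p in CCR2+ arrays belonged to Tlr13 (-0.21), Msr1 (0.20), Slc15a4 (-0.20), the kinase Map3k7 (-0.31), the transcription factor Irf1 (-0.36) and Zfp36 (0.42), which speeds the decay of cytokine mRNAs. In CCR2- arrays it belonged to Msr1 (-0.46, limma adjusted p = 1.00), Tlr12 (-0.16), Lgmn (-0.28), the ubiquitin-conjugating gene Ube2n (0.20), Cebpd (-0.42), the RNase Zc3h12a (0.20) and Ifnb1 (-0.17).

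Within one label, each receptor was set beside the genes that varied most like it over the 8 arrays of the label in which it was higher, a description over arrays that share a normalization, with 18193 genes searched. Tlr9 lay closest to Mgrn1 (Pearson r = 0.996) and Msra (r = 0.980) over CCR2- arrays, across a range of 0.51 log2 units. Tlr1 lay closest to Cmtr1 (r = 0.973) and Rfx5 (r = 0.963) over CCR2- arrays. Over CCR2+ arrays Tlr4 lay closest to Rbm27 and Clec4d (r = 0.978 for each), and Tlr8 to Syt12 (r = 0.983) and Tlnrd1 (r = 0.980). Tlr2 lay closest to Det1 (r = 0.970) and Spata5l1 (r = 0.968), Tlr3 to Cyp2r1 (r = 0.987) and Ccdc43 (r = 0.976), Tlr6 to Impa1 (r = 0.992) and Pus10 (r = 0.989), and Tlr7 to Resf1 (r = 0.973) and Atrx (r = 0.966). Tlr5 lay closest to Rab33b (r = 0.974) and Dmrtc1a (r = 0.968) over CCR2- arrays. With 2 genes kept of 18193 searched, no receptor had another of the 9 among them. These r are the highest of that search over 8 arrays. The r that such a search reaches without shared variation was not computed.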

How the data were processed

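The deposited values are linear probe set intensities for 45101 probe sets on 16 arrays; their summary method and any earlier normalization are not given in the sources used here. The log2 of each deposited intensity was taken and quantile normalized over the 16 arrays. Probe sets with several symbols (932) or none listed (9211) were left out, and 0 symbols changed against RefSeq identifiers.

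Limma 3.58.1 in R 4.3.3 fitted 1 mean per group over all 34958 probe sets (lmFit, eBayes), two-sided; p-values were adjusted by Benjamini-Hochberg over all of them and called under 0.05. The 5 comparisons were CCR2+ minus CCR2- within each genotype, RbpjiΔEC minus control within each label, and their interaction. Positive differences mean higher in the group named first. Errors are SDs over 4 arrays or limma standard errors. The steps were tested on simulated data. Hybridization and scan dates were not analysed here. Precision is limited by the 4 arrays per group.

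The members and the 17 gene lists (220 genes, 196 measured) were chosen with earlier results of these data known. All member probe sets are named. Of each pathway list, the 2 called genes with the largest difference in each direction in control mice and the gene with the smallest p in each genotype comparison are named, with further members where their role is described. Alternatives were other scalings, filters, probe set rules, fits and left-out arrays.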

Additional observations from a re-analysis of the deposited data

Results flagged for a closer look

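In 4 of 60 groups of 4 arrays, 1 array lay far from the other arrays for a Toll-like receptor probe set; chance flags about 1 in 20 groups, or 3.0 here. Array 1 of the CCR2- RbpjiΔEC group was the lowest for Tlr4 at 1442827_at, with 7.322, where the next array read 7.748. The same array was the lowest of that group for Tlr7 at 1422010_at, with 9.927, where the next read 10.28. Array 1 of the CCR2- control group was the lowest for Tlr7 at 1419848_x_at, with 8.748, where the next read 8.951. Array 3 of the CCR2- control group was the lowest for Tlr4 at 1430695_at, with 6.201, where the next read 6.287, and there all arrays were near the trp control.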

How the results depend on the processing

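The 22 called label differences of member probe sets gave 536 values under the alternatives: 534 kept direction and call, and 2 lost the call, both for Tlr7 at 1422010_at with the mean of all probe sets (0.09 in RbpjiΔEC and 0.11 in control mice). None reversed. Tlr7 at 1449640_at gained a call in RbpjiΔEC mice with array weights (-0.28, limma adjusted p = 0.0213). Genotype differences (466 values) and interactions (224 values) gained no call, but 24 and 16 values changed sign, as did 14 of the 184 values of uncalled label differences; the cause was not tested.

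Reversed values, all uncalled, were these. With median centring, Tlr7 at 1422010_at between genotypes in CCR2- arrays was 0.025, and in control mice the label differences of Tlr4 at 1430695_at and Tlr7 at 1419848_x_at were -0.18 and 0.019. In intensities without normalization between arrays, the genotype differences in CCR2- arrays were -0.10 for Tlr4 and -0.058 for Tlr9, and the interactions 0.12 for Tlr2 and 0.13 for Tlr9. There the label differences in RbpjiΔEC mice were 0.00188 for 1430695_at, 0.14 for Tlr5, 0.22 for 1419848_x_at and 0.14 for 1449640_at, and in control mice -0.12 for 1430695_at, 0.073 for 1419848_x_at and 0.024 for 1449640_at. That scaling moved the median of all genes by -0.16 between genotypes in CCR2- arrays and by 0.23 between labels in RbpjiΔEC mice. With the mean of probe sets, Tlr7 was 0.081 between genotypes in CCR2- arrays and its interaction -0.014. With array weights, Tlr6 was 0.012 between genotypes in CCR2+ arrays and Tlr7 0.10 in CCR2- arrays. Without both CCR2- control arrays 1 and 3, chosen after seeing the data, the genotype differences in CCR2- arrays were -0.27 for Tlr4, 0.25 for Tlr8 and -0.14 for Tlr9, the label difference of 1430695_at in control mice was -0.00417, and the interactions were 0.014 for Tlr1, 0.12 for Tlr2 and 0.16 for Tlr9.

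Leaving out 1 array at a time, genotype differences that changed sign ranged in CCR2+ arrays from -0.14 to 0.00337 for Tlr6 and -0.024 to 0.048 for Tlr9, and in CCR2- arrays from -0.20 to 0.030 for Tlr2, -0.087 to 0.32 for Tlr4, -0.067 to 0.039 for Tlr5, -0.086 to 0.080 for Tlr7, -0.23 to 0.20 for Tlr8 and -0.016 to 0.15 for Tlr9. Label differences did so from -0.058 to 0.047 for 1430695_at and -0.11 to 0.00687 for Tlr5 in RbpjiΔEC mice, and from -0.000773 to 0.051 for 1430695_at in control mice. Interactions did so from -0.14 to 0.082 for Tlr2, -0.14 to 0.26 for Tlr4 and -0.13 to 0.039 for Tlr9.

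Called probe sets between genotypes in CCR2+ arrays numbered 0 with median centring, without normalization, with 1 probe set per gene and with the 8 arrays of the label alone, 5 with array weights, and 1 to 4 leaving out arrays. In CCR2- arrays they numbered 1 without CCR2- control arrays 1 and 3 and 0 to 1 leaving out arrays. Between labels, with 1 probe set per gene, 7107 genes in RbpjiΔEC and 7423 in control mice were called, and with the mean of probe sets 7291 and 7647; here genes replace probe sets. The number of Toll-like receptors called was 7 or 8 between labels under all 25 alternatives, and 0 between genotypes.

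With the replicate number as a block, 13763 probe sets were called between labels in RbpjiΔEC and 14589 in control mice, 2 and 0 between genotypes in CCR2+ and CCR2- arrays, and no receptor call changed. Same-numbered arrays deviated together, with a correlation above 0.1, in 0 of 4 pairs between genotypes in CCR2+ arrays. In each of the other comparisons they did so in 2 of 4 pairs. Between labels, the own number gave the highest correlation in 3 of 4 pairs in each genotype. Between genotypes it did so in 0 of 4 pairs in CCR2+ and 2 of 4 in CCR2- arrays. The sample labels do not say that the numbers mark shared animals, so the main fit did not take them as pairs. Signal over background limits Tlr5 and Tlr4 at 1430695_at, which lay near the trp control, and Tlr3 at 1422781_at in CCR2- arrays.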
